A study of Mus musculus with 6 samples.

Results

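The 46 genes described here are those whose symbol begins with Psma, Psmb, Psmc, Psmd, Psme or Psmf followed by a digit, out of 25033 gene symbols with deposited read counts. All but 2 of them (Psmc3ip and Psme2b) encode subunits, activators, the inhibitor or assembly chaperones of the proteasome, and 45 of the 46 passed the filter on low counts. The exception was Psmb11. Libraries of mRNA were made from Trizol-extracted RNA of GFP+ haematopoietic stem cells (HSCs, labelled as such) sorted from mouse bone marrow. All mice are labelled C57BL/6J and 6 months old. For the 3 control libraries the mice had received HSCs exposed to a control RNA, and for the 3 inhibitor libraries HSCs exposed to an inhibitor of miR-31-5p, which blocks that microRNA. The labels do not say how the RNAs were delivered, when the cells were sorted or whether each library is 1 animal. The p-values therefore cover the spread among libraries alone, and part of that spread may be technical. Values by library are listed in the order of libraries 1, 2 and 3, and gene positions are those of the RefSeq table for GRCm38.p6 (mm10).

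The proteasome is the protease that degrades proteins tagged with ubiquitin. Its 20S core is a barrel of alpha rings, which gate the entry, and beta rings, in which only Psmb5, Psmb6 and Psmb7 are catalytic. The 19S regulatory particle binds ubiquitin, unfolds the substrate with a ring of ATPases (the Psmc genes) and removes the ubiquitin. In blood and immune cells, and after interferon gamma, Psmb8, Psmb9 and Psmb10 take the places of Psmb5, Psmb6 and Psmb7 in newly made cores. The resulting immunoproteasome, often capped by the activator made of Psme1 and Psme2, favours peptides for class I presentation.

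The 2 sequences below show the agent's target and the only match to its seed found among the tested proteasome genes. The mature microRNA (RefSeq, GRCm38.p6, chr4:88910614-88910635, minus strand) has its seed, bases 2 to 8, in capitals. The second is the matching site in the longest annotated 3′ UTR (GENCODE M21, mm10) of Psmd9, a chaperone of 19S assembly, at chr5:123248899-123248928 (plus strand), with the letters that pair with the seed in capitals.
mmu-miR-31-5p: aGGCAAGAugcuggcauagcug
Psmd9 site: acttcccaggtTCTTGCCctcttttgtttt
A TCTTGCC site was present in 1 of the 45 tested proteasome genes (2.22%) and in 1553 of 12280 tested genes with an annotated 3′ UTR (12.6%). The median 3′ UTR was 241 bases in the proteasome genes and 1109 over all tested genes. Psmb11, which was not tested, also held a site. A match is a description of the letters and not a measure of binding.

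Libraries held 16873188 to 21245861 counts, so that a floor of 3 counts stood for 0.141 to 0.177 CPM, counts scaled to a common library size. The first principal component (70.8% of the variance) separated the groups, and the second (9.48%) set control library 1 away from controls 2 and 3. Its proteasome levels stood apart as well, so results are also given without it. Of the labelled cell type's markers, Kit (402 CPM) and Cd34 (363 CPM) were abundant in controls. Procr (1.06 CPM) and Mecom (0.636 CPM), markers of long-term HSCs, were low in controls, where the myeloid gene Lyz2 stood at 2243 CPM. In the inhibitor libraries Procr was higher, at 7.55 CPM. Slamf1 was also higher, at 16.9 CPM against 5.22 CPM in controls, whereas Hlf and Ly6a were lower. Other cell types' markers, summed as CPM, moved with the groups. The sum of 10 monocyte and neutrophil genes (6 lower, 3 higher) was 9566 to 10554 in controls and 7367 to 7531 in inhibitor libraries. Sums over 8 markers each were 714 to 792 against 1340 to 1345 for conventional dendritic cells (6 higher), 888 to 1011 against 860.3 to 886 for plasmacytoid dendritic cells (5 lower, 1 higher), 1865 to 2141 against 4653 to 4747 for megakaryocytes (8 higher) and 971 to 1009 against 1026 to 1067 for HSCs and progenitors (2 higher, 2 lower). Erythroid sums (6 genes, 4 of 5 tested higher) were 5.69 to 7.28 against 17.2 to 20.3, those of B cells (6 genes, both tested lower) 16.9 to 18.98 against 9.81 to 10.5, those of T and NK cells (7 genes, 2 of 3 tested lower) 26.0 to 29.4 against 18.3 to 20.8, and those of stroma and endothelium (7 genes, 1 of 2 tested higher) 121 to 132 against 146 to 157. Cd79a, Ms4a1, Cd3e, Cd3g, Klrb1c, Car1, Col1a1, Col1a2, Cxcl12 and Cdh5 averaged at most 3 counts per library. The part of cell composition in the results below was not tested, and in sorted bulk cells fewer cells of a type and less RNA per cell cannot be told apart.

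Proteasome transcripts were slightly lower in the inhibitor group, with a median log2 change of -0.14 against -0.01 over all tested genes. Of the 45 tested, 14 fell and 2 rose at an adjusted p under 0.05 (edgeR's quasi-likelihood test, Benjamini-Hochberg adjustment over all genes). Those that fell were Psma4, Psma5, Psma6, Psmb3, Psmb7, Psmb10, Psmc1, Psmc4, Psmd6, Psmd7, Psmd9, Psmd13, Psme3 and Psmc3ip, and those that rose were Psmd5 and Psme4. Psmc3ip is counted by its symbol and is not a subunit, so that 13 lower remain without it. The 16 calls (35.6%) set against 40.5% over all 12978 tested genes are near the background. By direction, 31.1% of the proteasome genes were lower and 4.44% higher, where 20.1% and 20.4% of all tested genes were. The estimate was negative for 39 of the 45 and for 6664 of all 12978. Groups of libraries did not overlap in 26 of the 45 (57.8%), near the 52.4% of all tested genes. Of these 26, 23 were lower, against 3440 of the 6805 non-overlapping genes among all tested. No change was large: called members changed by 0.19 to 0.46 on the log2 scale, at most 1.37-fold. None of the members, but 2025 of all tested genes (15.6%), changed by 0.5 or more past the threshold. The calls for Psma4, Psma5, Psma6, Psmb7, Psmc1, Psmd6, Psmd13 and Psmd5 held under all 16 alternative fits, and the other 8 were lost under at least 1. Without control library 1 the median was -0.08, with 12 lower and 4 higher, and without inhibitor library 1 or 2 the number lower was 9 or 8. A correction for GC content and length gave 22 lower and 2 higher, but it called 50.8% of all genes and took their median to -0.08, against -0.13 for the proteasome genes.

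**Figure D1:**
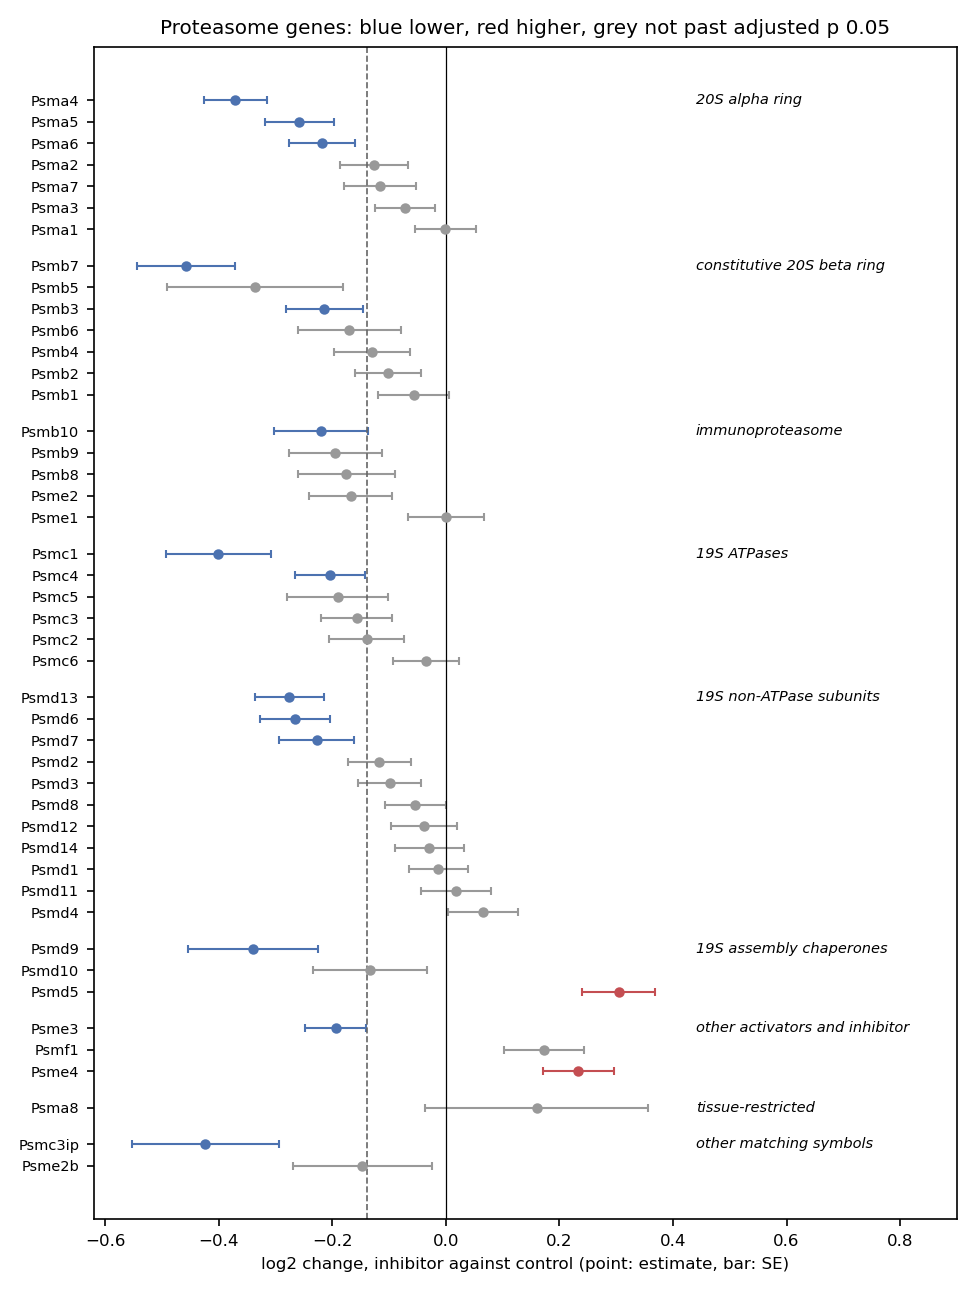
Log2 change of inhibitor against control (x axis, point with SE bar) for each of the 45 tested proteasome genes, by class; the dashed line is their median, -0.14. The points lie between -0.46 (Psmb7) and 0.30 (Psmd5), with 14 lower in blue and 2 higher in red.

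The alpha ring was represented by Psma1 to Psma7, and 3 of the 7 fell (42.9%, against 20.1% of all tested genes). The median change was -0.13, or -0.19 with the correction for GC content and length. Psma4 (chromosome 9, 54950781 to 54958034), whose product's N-terminus helps to close the gate of the core, stood at 139, 132 and 129 CPM in the controls and 101, 104 and 104 CPM in the inhibitor libraries. All inhibitor libraries lay below all controls, with a log2 change of -0.37 ± 0.06 (adjusted p = 8.1e-05). Psma5 (-0.26 ± 0.06, adjusted p = 0.00327) and Psma6 (-0.22 ± 0.06, adjusted p = 0.00743) also fell without overlap. Transcripts of Psma5 share 54.5% of their 50-base windows with other genes' transcripts in GENCODE, mostly predicted genes, so its count is uncertain. At the other end of the ring, Psma1 stood at 189, 199.8 and 192 CPM in the controls and 197, 197 and 186 CPM in the inhibitor libraries, with fully overlapping groups and a change of 0.00 ± 0.05. The remaining members, Psma2, Psma3 and Psma7, had changes of -0.13, -0.07 and -0.12 that did not pass. Per kilobase of the longest transcript, control levels ran from 62.1 CPM for Psma3 to 154 CPM for Psma1. The listed length of Psma3, 2398 bases, was the longest in this ring.

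In the constitutive beta ring, 2 of the 7 genes fell (28.6%, against 20.1% of all tested genes). The median change was -0.17, or -0.07 with the correction for GC content and length. Psmb7, the trypsin-like catalytic subunit (chromosome 2, 38588046 to 38643952), stood at 131, 99.8 and 104 CPM in the controls and 79.7, 82.8 and 81.3 CPM in the inhibitor libraries, without overlap, a change of -0.46 ± 0.09 (adjusted p = 0.000854), or -0.33 without control library 1 and -0.30 without control libraries 1 and 3. Psmb3, a structural subunit, went from 121 ± 11.8 to 105 ± 0.918 CPM (± SD, n = 3) (-0.21 ± 0.07, adjusted p = 0.0196). Its call was lost without control library 3 (-0.21) or any 1 inhibitor library (-0.22 to -0.21), and the change was -0.07 with a correction for GC content and length. It shares 55.8% of its 50-base windows with other transcripts. Psmb5, the chymotrypsin-like subunit and main target of proteasome inhibitors (chromosome 14, 54614120 to 54617995), stood at 129, 89.6 and 84.1 CPM in the controls and 85.5, 75.8 and 78.6 CPM in the inhibitor libraries. Control library 1 was far above the rest and control library 3 lay below inhibitor library 1, and the change of -0.34 ± 0.16 did not pass (adjusted p = 0.124). It was -0.12 without control library 1. It passed in 3 of 16 alternative fits: without control library 3 (-0.45), with a replicate block (-0.32) and with the correction for GC content and length (-0.21). Psmb5 shares 57.1% of its windows, so its count is uncertain too. Psmb6, the caspase-like subunit (chromosome 11, 70525324 to 70527858), stood at 109, 81.6 and 85.9 CPM in the controls and 82.8, 83.1 and 80.2 CPM in the inhibitor libraries. Its groups overlapped, and its change of -0.17 ± 0.09 did not pass (adjusted p = 0.155); it was -0.03 without control library 1, and passed at -0.25 without control library 2. Psmb1 was at the upper end of the ring, with 181, 159.9 and 155 CPM in the controls and 160.0, 158 and 159 CPM in the inhibitor libraries. This was a change of -0.06 ± 0.06, with overlap. Psmb2 and Psmb4 had -0.10 and -0.13 and did not pass.

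Of the 5 immunoproteasome genes, 1 fell, Psmb10 (20%, near the 20.1% of all tested genes). The median change was -0.18, or -0.08 both without control library 1 and with the correction for GC content and length. Psmb8 (LMP7, chromosome 17, 34198195 to 34201454), the immune counterpart of Psmb5, stood at 151, 125 and 119 CPM in the controls and 115, 109 and 126 CPM in the inhibitor libraries. Inhibitor library 3 lay above control libraries 2 and 3, and the change of -0.18 ± 0.08 did not pass (adjusted p = 0.116). Without control library 3 it was -0.24 and passed, and without control library 1 it was -0.07. Psmb9 (LMP2, chromosome 17, 34182030 to 34187330), the counterpart of Psmb6, lies 10864 bases from Psmb8 in the major histocompatibility complex. It stood at 54.9, 46.1 and 46.0 CPM in the controls and 42.5, 44.8 and 41.1 CPM in the inhibitor libraries, with every inhibitor library below every control, but its change of -0.19 ± 0.08 did not pass (adjusted p = 0.0688). It was -0.11 without control library 1 and passed without control library 2 (-0.23). Psmb10 (MECL-1, chromosome 8, 105935728 to 105938392), the counterpart of Psmb7, stood at 69.1, 56.5 and 55.1 CPM in the controls and 53.3, 51.0 and 50.7 CPM in the inhibitor libraries. The groups did not overlap and the change was -0.22 ± 0.08 (adjusted p = 0.0451). In 9 of 16 alternative fits it did not pass (adjusted p 0.0165 to 0.282 over all 16), and it was -0.11 without control library 1.

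Psme1 and Psme2 encode the chains of the activator PA28, which opens the core without ATP, and lie 5912 bases apart on chromosome 14 (55578494 to 55581527 and 55587440 to 55591101). Psme1 stood at 149, 132 and 131 CPM in the controls and 131, 134 and 148 CPM in the inhibitor libraries. The groups overlapped throughout and the change was 0.00 ± 0.07 (adjusted p = 1.00). Psme2 stood at 92.2, 76.7 and 78.3 CPM in the controls and 73.1, 75.6 and 71.3 CPM in the inhibitor libraries. Its inhibitor libraries all lay below the controls, and its change of -0.17 ± 0.07 did not pass (adjusted p = 0.0779), or passed at -0.21 without control library 2. It was -0.08 without control library 1. Psme2 shares 55.6% of its windows with other transcripts, foremost the retrocopy Psme2b, so the split of reads between these is uncertain. Without control library 1, none of the 5 passed in edgeR, nor did any have an unadjusted p under 0.05.

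**Figure D2:**
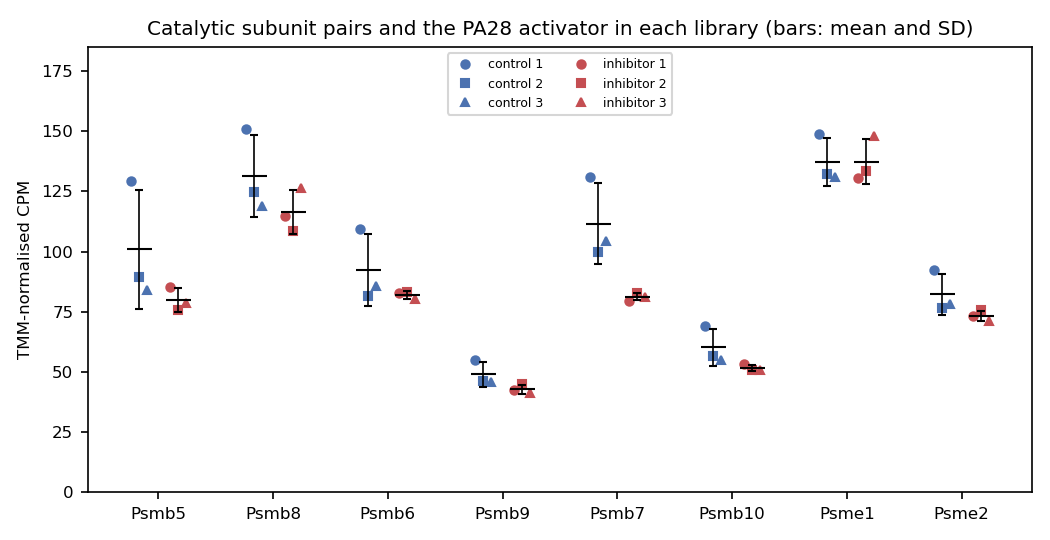
TMM-normalised CPM (y axis) of the constitutive catalytic genes, their immune counterparts and the PA28 genes in each library, with mean and SD bars. Control library 1 is the highest library for all 8 genes, and all inhibitor libraries of Psmb7, Psmb9, Psmb10 and Psme2 lie below all controls.

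Transcripts of the immune catalytic subunits made up a large share of the catalytic set in both groups. Dividing counts by transcript length, the ratio of summed Psmb8, Psmb9 and Psmb10 to summed Psmb5, Psmb6 and Psmb7 was 0.633, 0.715 and 0.689 for the controls and 0.724, 0.730 and 0.772 for the inhibitor libraries. The inhibitor libraries were all higher, by 0.13 on the log2 scale (0.08 without control library 1), and no test was made of this sum. The ratio of Psmb10 to Psmb7 was 0.403, 0.432 and 0.404 in controls and 0.510, 0.470 and 0.476 in inhibitor libraries, a difference of 0.23 (SD of the log2 ratio 0.06 in each group). The groups did not overlap, and the exact two-sided permutation test gave p = 0.1, the smallest that 3 against 3 libraries allow (0.3 adjusted over the 3 pairs). Psmb8 to Psmb5 gave 0.832, 0.990 and 1.01 in controls and 0.956, 1.02 and 1.14 in inhibitor libraries, which overlapped (difference 0.14, SD 0.15 and 0.13, exact permutation p = 0.4, adjusted 0.6). That difference was 0.05 without control library 1 and 0.07 without inhibitor library 3. Psmb9 to Psmb6 gave 0.645, 0.727 and 0.688 against 0.660, 0.693 and 0.659, a difference of -0.03 with SDs of 0.09 and 0.04 (exact permutation p = 0.7, adjusted 0.7), which turned to 0.01 without control library 2 and was -0.08 without control library 1. Both Psmb10 and Psmb7 were lower in the inhibitor group, as given above.

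**Figure D3:**
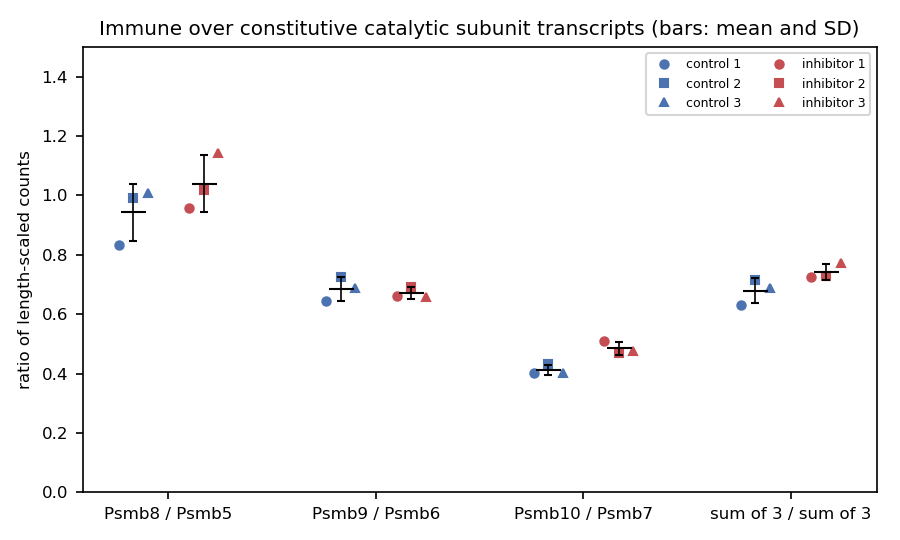
Ratio of length-scaled counts of immune to constitutive catalytic subunits (y axis) in each library, with mean and SD bars, for the 3 pairs and their sums. The inhibitor libraries lie above the controls for Psmb10 to Psmb7 (0.470 to 0.510 against 0.403 to 0.432) and overlap them for the other 2 pairs.

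Among the ATPases of the 19S base, 2 of 6 fell (33.3%, against 20.1% of all tested genes). The median change was -0.17, or -0.09 without control library 1. Psmc1 (chromosome 12, 100110202 to 100123364), whose C-terminal tail docks into the alpha ring and opens the gate, stood at 167, 139 and 134 CPM in the controls and 118, 118 and 96.9 CPM in the inhibitor libraries. The groups did not overlap and the change was -0.40 ± 0.09 (adjusted p = 0.00445). Psmc4 went from 121 ± 7.35 to 105 ± 4.46 CPM (± SD, n = 3) (-0.20 ± 0.06, adjusted p = 0.0157), a call lost without inhibitor library 1 (-0.19) or 2 (-0.18). Psmc6 stood at 125, 134 and 136 CPM in the controls and 128, 134 and 124 CPM in the inhibitor libraries. Its groups overlapped, with a change of -0.04 ± 0.06. Psmc2, Psmc3 and Psmc5 had -0.14, -0.16 and -0.19 and did not pass. Without control library 1 they were at -0.06, -0.10 and -0.08, and without control library 2 Psmc3 (-0.19) and Psmc5 (-0.26) passed. Length-scaled control levels were more even here than in the other classes with 5 or more genes, from 77.2 CPM per kilobase for Psmc2 to 99.8 for Psmc3.

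Of 11 non-ATPase subunits of the 19S particle, 3 fell (27.3%, against 20.1% of all tested genes). The class median was -0.05, or -0.13 with the correction for GC content and length. Psmd13, a lid subunit (chromosome 7, 140882394 to 140898642), stood at 133, 127 and 124 CPM in the controls and 113, 104 and 100.4 CPM in the inhibitor libraries. It fell by 0.28 ± 0.06 on the log2 scale without overlap (adjusted p = 0.00207). Psmd6, also of the lid, fell from 108 ± 5.94 to 90.1 ± 3.72 CPM (± SD, n = 3) (-0.26 ± 0.06, adjusted p = 0.00308). Psmd7, the inactive partner of the deubiquitinase Psmd14, had a change of -0.23 ± 0.07 (adjusted p = 0.0126), which no longer passed without inhibitor library 2 (-0.20). Psmd14 itself was at -0.03 and did not pass. At the upper end was Psmd4, a receptor for ubiquitin chains, with 130.2, 112 and 121 CPM in the controls and 125, 127 and 127 CPM in the inhibitor libraries. Its groups overlapped at a change of 0.07 ± 0.06 (adjusted p = 0.42), and it passed as higher without control library 1 (0.12). Psmd1 and Psmd2, the large scaffolds of the base, had -0.01 and -0.12, and Psmd3, Psmd8, Psmd11 and Psmd12 lay between -0.10 and 0.02. None of these 6 passed.

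Of the 3 chaperones that assemble the 19S base, 1 rose, 1 fell and 1 missed the threshold (median -0.13, or -0.08 without control library 1). The share called was 66.7%, against 40.5% of all tested genes. Psmd5 (chromosome 2, 34852087 to 34870965), which binds the ATPase module with Psmc1, Psmc2 and Psmd2, rose. It stood at 59.2, 65.3 and 66.9 CPM in the controls and 78.0, 78.6 and 79.8 CPM in the inhibitor libraries, without overlap, a change of 0.30 ± 0.06 (adjusted p = 0.00152). Psmd9 stood at 33.8, 24.7 and 26.7 CPM in the controls and 24.3, 21.7 and 21.2 CPM in the inhibitor libraries. Its inhibitor libraries all lay below its controls, inhibitor library 1 just below control library 2. The change was -0.34 ± 0.11 (adjusted p = 0.0274), but it did not pass without control library 1 (-0.20) or inhibitor library 2 (-0.32) or 3 (-0.30). Psmd10 (gankyrin) was at -0.13 ± 0.10 and did not pass.

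Of the remaining activators and the inhibitor, 1 fell, 1 rose and 1 missed the threshold (median 0.17), a share called of 66.7% against 40.5% of all tested genes. Psme3, the nuclear PA28 gamma activator (chromosome 11, 101316213 to 101323537), stood at 239.6, 247 and 243 CPM in the controls and 206, 208 and 224 CPM in the inhibitor libraries. All inhibitor libraries were lower (-0.19 ± 0.05, adjusted p = 0.00988), a call lost without inhibitor library 1 (-0.17) or 2 (-0.18). Psme4, which encodes PA200, a nuclear activator that caps the core without ATP (chromosome 11, 30771775 to 30881150), stood at 132, 155 and 145 CPM in the controls and 171, 163 and 174 CPM in the inhibitor libraries. All inhibitor libraries were higher (0.23 ± 0.06, adjusted p = 0.00838), but a correction for GC content and length took the change to 0.01. Psme4 has the longest listed transcript of these genes, 6442 bases. Psmf1, the inhibitor PI31, went from 41.6 ± 1.54 to 46.9 ± 1.34 CPM (± SD, n = 3); its groups did not overlap, but its change of 0.17 ± 0.07 did not pass (adjusted p = 0.0599). It passed without control library 1 (0.19).

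Tissue-restricted subunits were low. Psma8, the testis form of Psma7, stood at 3.51, 2.85 and 3.24 CPM in the controls and 3.13, 3.79 and 3.84 CPM in the inhibitor libraries, with overlap and a change of 0.16 ± 0.20. Psmb11, the thymus form of Psmb5, 7314 bases from it on chromosome 14, had 1 count in control library 1, 1 in inhibitor library 1 and 0 in the others, under the floor of 3 counts in every library. The other matching symbols are not subunits in the usual sense. Psmc3ip, which acts in meiotic recombination and only shares its name, stood at 16.5, 12.2 and 14.8 CPM in the controls and 10.4, 11.8 and 10.2 CPM in the inhibitor libraries. It was lower without overlap (-0.42 ± 0.13, adjusted p = 0.0166), though not past the threshold without inhibitor library 1 (-0.40) or 3 (-0.38). The retrocopy Psme2b, which shares 69.3% of its windows with other genes, was at -0.15 ± 0.12 and did not pass.

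The subunit classes shared a pattern across libraries that was not only one of group. Centred over the 6 libraries, the mean log2 level of the constitutive beta ring was 0.28 in control library 1, 0.00 and 0.02 in control libraries 2 and 3, and -0.07, -0.12 and -0.12 in the inhibitor libraries. The immunoproteasome gave 0.25, 0.00 and -0.02 in controls and -0.09, -0.08 and -0.05 in inhibitor libraries. The alpha ring gave 0.14, 0.06 and 0.04 against -0.07, -0.09 and -0.09, and the ATPases 0.21, 0.04 and 0.04 against -0.10, -0.10 and -0.08. In the non-ATPase subunits the values were 0.09, 0.03 and 0.02 against -0.03, -0.08 and -0.03. In each of these 5 classes the controls were all above the inhibitor libraries, with control library 1 the highest. Control library 1 was the highest library for 33 of the 45 proteasome genes (73.3%) and for 28.7% of all tested genes. The precursor ribosomal RNA Rn45s, which also varied among controls, had 20039, 3667 and 61656 counts among the controls, against 1784 to 3145 in the inhibitor group. Any link between Rn45s and the proteasome levels was not tested, nor was the reason why control library 1 stood apart.

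**Figure D4:**
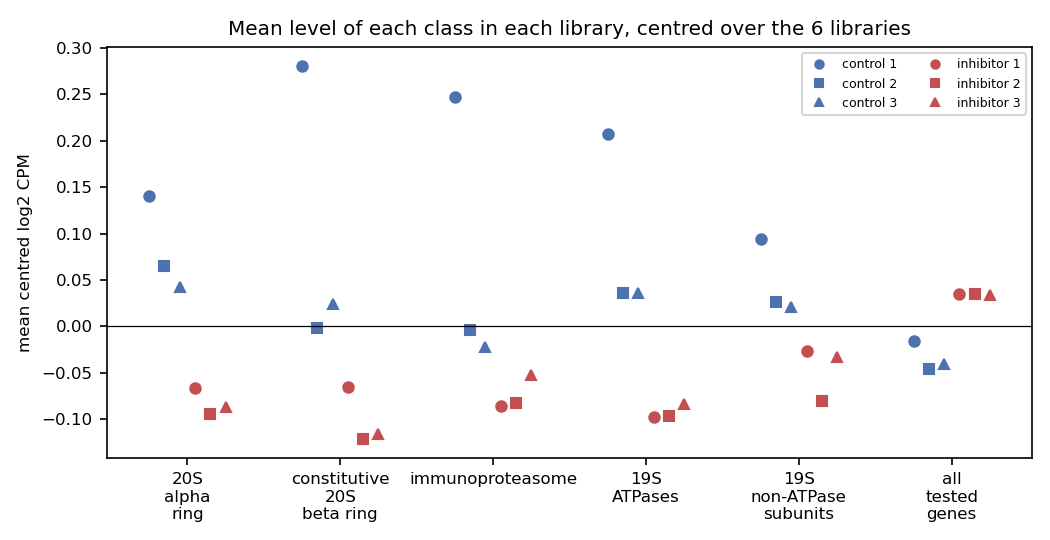
Mean log2 CPM of each class of proteasome genes in each library, centred over the 6 libraries (y axis), beside all tested genes. Control library 1 reaches 0.28 in the constitutive beta ring, where the other controls lie at 0.00 and 0.02 and the inhibitor libraries at -0.12 to -0.07.

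Factors that assemble or accompany the proteasome were also partly lower. Of 19 tested, 7 fell and 2 rose (47.4%, near the background), with a median of -0.07. Psmg3, a chaperone of alpha ring assembly, fell from 22.6 ± 2.19 to 14.8 ± 1.47 CPM (-0.61 ± 0.11), and Psmg1 (-0.33 ± 0.10), also of alpha ring assembly, and Pomp (-0.20 ± 0.06), which assists the beta ring, fell as well. Zfand5, which activates the proteasome in wasting muscle, rose from 139.9 ± 8.54 to 183 ± 12.03 CPM (0.39 ± 0.06). Ubqln2, a shuttle for ubiquitinated proteins, rose by 0.24 ± 0.06, and Rad23b, another, fell (-0.23 ± 0.06). Of 12 tested genes of the NFE2L1 route, which restores proteasome transcription when the proteasome is impaired, and its relatives, 2 rose and 1 fell. This was 25.0%, against 40.5% of all tested genes, with a median change of -0.04. Nfe2l1 itself was at -0.11 ± 0.07 and did not pass. Nfe2l2, which encodes NRF2, fell from 243 ± 5.47 to 202 ± 4.57 CPM (-0.27 ± 0.05), and Stat3 (0.20 ± 0.06) and Ngly1 (0.24 ± 0.09), the glycanase that matures NFE2L1, rose. Of 6 ubiquitin genes tested, 2 rose and 1 fell (50%, against 40.5% of all tested genes), with a median of -0.05. The activating enzyme Uba6 rose (0.24 ± 0.09) and Ubb, which encodes ubiquitin, fell (-0.33 ± 0.09).

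The interferon gamma route that induces the immunoproteasome moved both ways. Of 12 genes tested, 6 rose and 3 fell (75.0%, against 40.5% of all genes), with a median of 0.15. Jak2, the receptor's kinase, rose from 117 ± 14.3 to 202 ± 5.69 CPM (0.79 ± 0.08). Irf1, which acts on the promoters of the immune subunits, fell from 50.9 ± 4.01 to 37.2 ± 1.40 CPM (-0.45 ± 0.08), and the receptor chain Ifngr1 fell (-0.38 ± 0.05). Irf2, Irf8, Nlrc5 and Ciita also rose and Stat2 also fell, and Irf8 is on the list of plasmacytoid dendritic markers as well. Of 10 genes of class I peptide loading, 1 rose and 1 fell (20%, against 40.5% of all tested genes), with a median of 0.03. The light chain B2m rose by 0.17 ± 0.05 and the chaperone Calr fell (-0.49 ± 0.06). Tap1 and Tap2, the peptide transporter genes that lie between and beside Psmb8 and Psmb9, were at -0.01 ± 0.06 and 0.01 ± 0.07 and did not pass.

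Promoter sequences (RefSeq, GRCm38.p6, 250 bases before to 50 after the start) were given for 39 of the 46 genes, as 42 promoters. Those of Psma8, Psmb1, Psmb2, Psmb7, Psmc3, Psmd3 and Psmd7 were not used. Each motif was sought on both strands. The antioxidant response element TGACNNNGC, which NFE2L1 and NRF2 bind, was found in 14.3% of these and in 12.4% of all 32851 promoters of that length. The genes with it were Psmb5, Psmb6, Psmc6, Psmd9, Psmd12 and Psme4. Shares were 9.52% against 3.44% for the interferon-stimulated response element (Psmb3, Psmd4, Psmd9 and Psme1), 4.76% against 8.30% for the gamma-activated site TTCNNNGAA (Psmb8 and Psmd2) and 35.7% against 37.4% for the CCAAT box. Genes with the antioxidant element differed in their changes, from -0.34 for Psmd9 to 0.23 for Psme4. The 250 bases before the start of Psmb5 (chr14:54617996-54618245, minus strand) and Psmb8 (chr17:34197945-34198194, plus strand) are shown because this constitutive and immune pair held different motifs, which are in capitals.
Psmb5: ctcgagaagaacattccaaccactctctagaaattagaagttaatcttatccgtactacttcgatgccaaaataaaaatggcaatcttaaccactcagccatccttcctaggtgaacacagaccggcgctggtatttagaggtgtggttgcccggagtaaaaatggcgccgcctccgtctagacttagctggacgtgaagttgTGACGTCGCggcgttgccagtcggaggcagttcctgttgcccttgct
Psmb8: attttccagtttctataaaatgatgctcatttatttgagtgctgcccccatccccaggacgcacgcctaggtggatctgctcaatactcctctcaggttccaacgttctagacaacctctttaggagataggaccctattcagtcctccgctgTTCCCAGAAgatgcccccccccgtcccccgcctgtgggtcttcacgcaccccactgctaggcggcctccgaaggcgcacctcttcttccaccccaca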

How the data were processed

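Each deposited file held, per the file headers, a read count and an RPKM value for each gene symbol of 1 library. The authors' aligner, counting program and use of strand were not given in the sources used here. The submitters' processing notes name mm10 and bcl2fastq 2.20. Deposited RPKM values served only to check the counts. The counts were tested with edgeR 4.0.16 (robust quasi-likelihood, TMM scaling, genes filtered at a minimum count of 10 and a total of 15) under R 4.3.3, with Benjamini-Hochberg adjustment over all 12978 genes that passed and a threshold of 0.05. Library totals of 16873188 to 21245861 counts set the precision. SEs are the log2 change divided by the root of the F statistic. On simulated counts for 12851 genes this comparison recovered 21, 38, 45 and 50 of 50 genes changed 1.25-, 1.5-, 2- and 4-fold, and called 11 unchanged genes. The simulation changed few genes, where 40.5% passed in the data. It also gave both groups the same dispersion, where controls differed more among themselves than inhibitor libraries did. Its recovery therefore need not hold for the real comparison. Shared sequence was measured in windows of 50 bases of GENCODE M21 transcripts. Levels between genes were compared as CPM per kilobase of listed length, and log2 ratios by exact two-sided permutation tests over libraries (SciPy 1.17.1). Centred class levels were averaged from the log2 of the CPM values, with no count added first.

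Values by library were given for the immunoproteasome and constitutive catalytic genes, for the highest and lowest log2 change in each other class, and, in each related list, up to 4 genes with the smallest p were named. Psmg1, Pomp, Nfe2l1, Tap1 and Tap2 were added after their values were seen, and some genes of these lists are not reported here by name. The genes and lists were chosen with earlier results of these data known. Alternatives were other scaling, filters, thresholds and tools (DESeq2 1.42.0, limma 3.58.1), a replicate block, libraries left out, thinning, a loess correction (span 0.4) for GC content and length, and a scaling that omits Rn45s and the 50 genes of highest count.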

Additional observations from a re-analysis of the deposited data

How the results depend on the processing

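Of the 16 proteasome calls, 8 (Psma4, Psma5, Psma6, Psmb7, Psmc1, Psmd6, Psmd13 and Psmd5) held under all 16 alternative fits. Leaving out 1 library at a time gave 10 to 21 calls in all, 8 to 19 lower, 2 to 4 higher and 0 to 3 in the immunoproteasome. Requiring an absolute log2 change of 0.3 left 6 calls, 5 lower, 1 higher and 0 in the immunoproteasome. Without control libraries 1 and 3, where the remaining control is assumed to vary like the inhibitor libraries, 9 were lower, and Psmd7 (-0.14), Psmd9 (-0.14), Psmc3ip (-0.18) and Psme4 (0.12) were among the calls lost. The GC and length correction gave 22 lower, and 6592 calls over all genes with a median log2 change of -0.08, so that the correction moved all genes as well. The immunoproteasome count, 1 as reported, was 0 in DESeq2, limma-voom, the GC and length correction, the thinned libraries and without control libraries 1 and 3 (2, 3, 1, 3 and 0 at an unadjusted p under 0.05), 2 with no filter and 3 at an adjusted p of 0.1. The cause of these shifts was not tested.

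Differences near 0 changed sign. Psma1 was at 0.0054 with RLE and DESeq2, 0.0057 with a stricter filter, 0.0011 when thinned and -0.019 to 0.029 with 1 library left out. Psme1 was at 0.0061 with RLE, 0.0064 with a stricter filter, 0.0062 in DESeq2, 0.10 with the GC and length correction, 0.051 without control libraries 1 and 3 and -0.053 to 0.059 with 1 library left out. With 1 library left out, Psmb1 ranged from -0.096 to 0.0096 and Psme2b from -0.22 to 0.0088, both above 0 without control library 1. Psmb6 (0.0041) and Psme2b (0.019) were above 0 without control libraries 1 and 3. The log2 ratio of Psmb9 to Psmb6 was -0.076 to 0.0095 with 1 library left out (above 0 without control library 2) and 0.0036 with the GC and length correction, and that of Psmb10 to Psmb7 was 0.17 without control libraries 1 and 3.

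Nothing in the labels says that the replicate numbers pair the libraries, and with 3 libraries per group the correlations of deviations cannot decide it. Same-numbered libraries had correlations of 0.06, 0.01 and 0.04, against -0.05 to 0.02 for libraries of different numbers. Control libraries 1 and 3 correlated best with the inhibitor library of the same number, and control library 2 with inhibitor library 3 (0.02). With a replicate block 5673 genes in all, 17 proteasome genes lower and 2 higher, and 2 immunoproteasome genes passed, and Psme1 was at 0.00022. Counts that may be split between near-identical copies, and whether strand was used, limit Psma5, Psmb3, Psmb5, Psme2 and Psme2b.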
